A study of Rattus norvegicus with 12 samples.

Results

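The interferon response genes examined here are 36 gene symbols looked up by name in a table of read counts from rat cardiac fibroblasts and cells derived from them. They comprise RNA sensors, transcription factors, antiviral effectors and antigen processing genes. In the table of 32545 genes, 35 of the symbols were found, and they filled 36 rows because Tap2 stands on 2 rows. Xaf1 was not matched by name, so its level was not analysed here, but its promoter is counted among those described below. Of the 36 rows, 35 passed the filter on low counts, which 14399 rows of the whole table passed. Ifit1, an antiviral protein gene, did not pass, with 8 counts in RCF replicate 1 and 0 in every other library.

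The 12 libraries came from 4 groups of cultured rat heart cells, each with 3 replicates that the design text calls biological. RCF are wild-type parental cardiac fibroblasts without treatment, the control group. GS are immortalized cells made from such fibroblasts by viral overexpression of Sall4 and Gata4 and left undifferentiated. GS_diff1 are GS cells in CMM medium, labelled as cardiomyocyte differentiation, and GS_diff2 are GS cells in CMM medium with EGM2 solution added, labelled as cardiomyocyte and endothelial differentiation. The 3 GS groups thus share the virus, both factors and immortalization, and no group here is labelled as carrying an empty virus. The labels do not say whether GS is 1 clone, nor give the strain, the age of the animals or the culture times. Effects of the factors, the virus and immortalization cannot be told apart in GS against RCF. Nor can medium and time in culture in comparisons of the media groups with GS or with each other.

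Libraries held 16255682 to 23117864 counts. Levels are normalised read counts in CPM, scaled to a common library size, and SD is over the 3 libraries of a group. The treatment text of the labels names the virus for every sample, RCF included, but Sall4 had 0 counts in RCF and lay between 67.5 and 255 CPM in the other 9 libraries. Gata4 lay between 203 and 210 CPM in RCF and between 281 and 603 CPM elsewhere. Outside RCF, both factors were lowest in the GS_diff2 libraries, at no more than 72.4 CPM for Sall4 and 289 CPM for Gata4. Summed levels of 12 fibroblast markers were 42016 to 45151 CPM in RCF and 43940 to 47267 in GS. They were 50965 to 52430 CPM in GS_diff1 and 29271 to 29642 in GS_diff2. Col1a1 made up most of each sum, with means of 28307, 24370, 34758 and 18150 CPM in that order of groups. Some other single markers differed more. Tcf21, a fibroblast transcription factor, had means of 18.5 ± 0.584 CPM in RCF, 0.395 ± 0.253 in GS and 0.0831 ± 0.105 in GS_diff1, and 0 counts in GS_diff2. Dcn, a matrix proteoglycan gene, had means of 32.8 ± 1.55 CPM in the parental cells, 1.0 ± 0.533 in GS, 0.0703 ± 0.0618 in GS_diff1 and 0.419 ± 0.277 in GS_diff2. The markers Pdgfra and Lum went the other way, with means of 688 ± 31.8 and 116 ± 3.08 CPM in GS. In RCF their means were 97.4 ± 5.17 and 11.2 ± 1.29 CPM. Of the 12 markers, 5 were higher and 5 lower in GS than in RCF, beside 35.0% and 36.3% of all tested genes. Summed levels of 20 macrophage and leukocyte markers were 114 to 120 CPM in RCF, 23.7 to 27.5 in GS, 16.7 to 18.2 in GS_diff1 and 32.9 to 35.2 in GS_diff2. Of these markers 3 were at 0 in RCF, and 10, 14 and 12 in the GS, GS_diff1 and GS_diff2 groups, where Adgre1, Tyrobp and the C1q genes were at 0 throughout. A single marker, Cd14, made up most of the sum in each of these groups. Its mean was 23.2 CPM for undifferentiated GS cells, 14.1 CPM with CMM medium and 29.4 CPM with EGM2 solution added. The parental mean of Cd14 was 17.3 CPM.

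Interferons are secreted alarm proteins of the antiviral defence. Type I interferons bind the receptor of Ifnar1 and Ifnar2, the kinases Jak1 and Tyk2 then phosphorylate signal transducers such as Stat2, which joins Irf9 in a complex that binds a short promoter sequence, the interferon-stimulated response element (ISRE). Interferon gamma acts through Ifngr1, Ifngr2, Jak1 and Jak2, and its signal reaches genes through the gamma-activated site (GAS). Many of these genes are also kept at a low, steady level without infection, and fibroblasts are classical responders to interferon.

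The promoters show the elements through which this pathway is known to act. Promoters of 27 of the 36 symbols were found in RefSeq (build GRCr8, windows from 250 bases before the start of the gene to 50 after it). Those of Ifit1, Ifit2, Mx2, Isg15, Ddx58, Dhx58, Usp18, Rtp4 and Nlrc5 were not matched. The ISRE was searched as TTTC, any 2 bases and TTTC, which reads GAAA, any 2 bases and GAAA on the other strand. The GAS was searched as TTC, any 3 bases and GAA, which reads alike on both strands. An ISRE match lay in 18 of 27 members (66.7%), Xaf1 included, and in 3.92% of all 33469 promoters of that length. A GAS match lay in 7 of 27 members (25.9%) and in 8.87% of all promoters, and 1 of the members' GAS matches overlapped an ISRE match. The windows below belong to members whose levels are described further on. Capitals mark ISRE matches, and each sequence runs 5′ to 3′ on the strand of the gene.
Ifit3 (chr1:241527262-241527311, plus strand, match from -44): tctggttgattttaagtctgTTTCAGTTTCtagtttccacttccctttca
Rsad2 (chr6:48788238-48788287, minus strand, match from -147): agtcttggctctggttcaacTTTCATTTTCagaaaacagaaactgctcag
Ifitm3 (chr1:205541773-205541822, minus strand, match from -44): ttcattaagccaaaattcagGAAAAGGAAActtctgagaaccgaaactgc
Irf7 (chr1:205800063-205800112, minus strand, match from -69): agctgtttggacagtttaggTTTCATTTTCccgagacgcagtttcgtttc
Bst2 (chr16:18255063-18255118, minus strand, 2 matches, from -131): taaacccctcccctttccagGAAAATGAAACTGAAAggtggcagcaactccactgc
Tap1 (chr20:4668635-4668684, minus strand, match from -121): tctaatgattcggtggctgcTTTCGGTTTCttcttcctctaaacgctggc
B2m (chr3:129549160-129549209, plus strand, match from -150): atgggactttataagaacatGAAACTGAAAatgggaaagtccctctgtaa
No ISRE match was found for Irf1 and Irf9, whose windows each held a GAS match, here in capitals.
Irf1 (chr10:38417773-38417821, plus strand, match from -142): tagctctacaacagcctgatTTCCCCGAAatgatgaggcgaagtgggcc
Irf9 (chr15:33065717-33065765, plus strand, match from -99): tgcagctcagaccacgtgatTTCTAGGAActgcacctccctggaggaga
The other members without an ISRE match were Ifi35, Mx1, Oasl, Parp9, Psmb9, Stat2 and Trim25. The Tap1 match printed above also lies upstream of its neighbour Psmb9, outside the Psmb9 window, which starts at 4668750. A match in letters describes the window and says nothing of binding.

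Most members were lowest in GS_diff1. It had the lowest mean of the 4 groups in 29 of 35 tested rows, against 24.9% of all tested genes. RCF had the highest mean in 20 rows (31.8% of all tested genes) and GS_diff2 in 11 (23.2%). Summed over all member rows, the libraries gave 2604 to 2616 CPM for RCF, 1617 to 1682 for GS, 757 to 777 for GS_diff1 and 1608 to 1630 for GS_diff2. B2m, Ifi27 and Ifitm3 made up 63.1 ± 0.312% (SD, n = 3) of that sum in RCF and 38.1 ± 0.301% in GS_diff1. The remaining members summed to 962 ± 8.04 CPM for RCF, 704 ± 15.0 for GS, 476 ± 4.48 for GS_diff1 and 766 ± 5.13 for GS_diff2. In these bulk libraries, fewer cells that express a gene and less RNA per cell cannot be told apart.

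**Figure D1:**
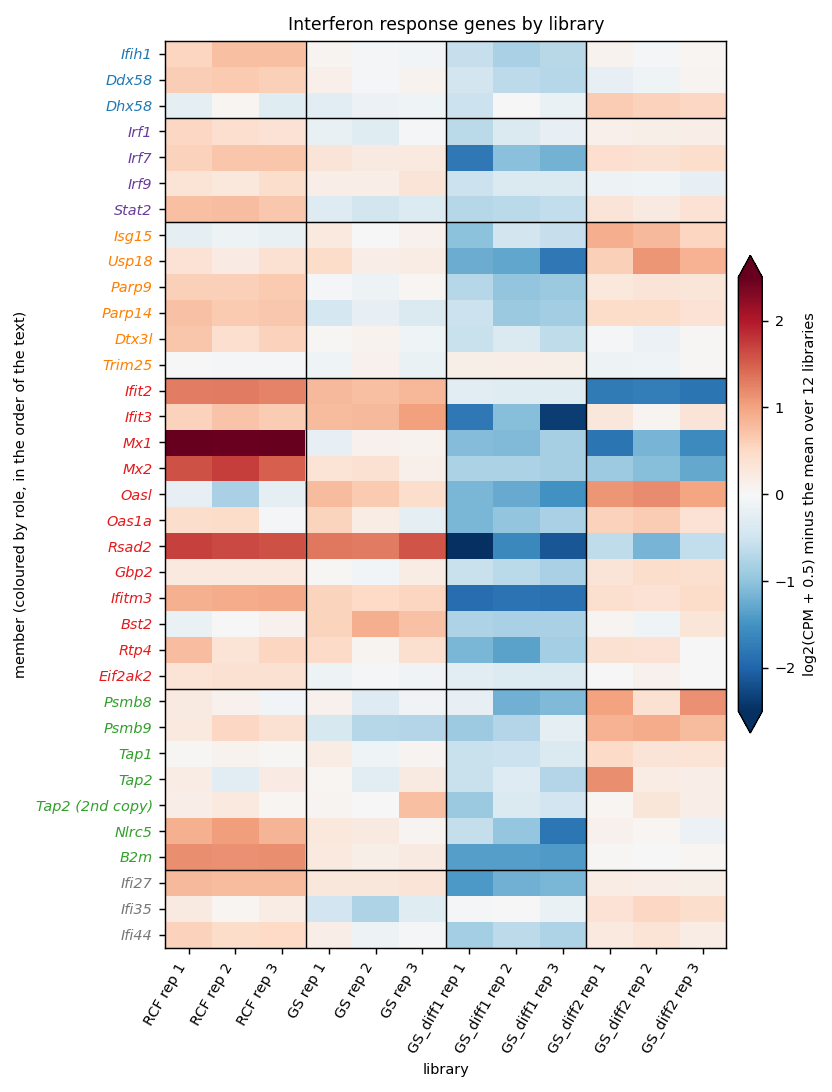
Level of the 35 tested member rows in each of the 12 libraries, as log2(CPM + 0.5) minus the row's mean over all libraries; rows are grouped by role and columns are libraries. The 3 GS_diff1 libraries are the lowest for most rows, while Ifit2, Mx1 and Mx2 are lowest in GS_diff2.

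Per length of the gene models, B2m, the light chain of MHC class I molecules, was the most abundant member of the parental cells, at 640.0 RPKM (CPM per kilobase), and stood at 109 RPKM in GS_diff1. Ifi27, whose row carries the description of the related protein IFI6, and Ifitm3, a membrane protein that blocks virus entry, followed with 326 and 311 RPKM in RCF. Trim25 came next at 34.8 RPKM. The effectors Mx1 and Rsad2 stood at 5.55 and 4.6 RPKM, and Nlrc5, an activator of MHC class I genes, at 0.495.

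The comparison of GS with RCF asks how cells carrying Sall4 and Gata4 differ from their parental fibroblasts. Of 35 tested rows, 19 were lower in GS and 3 higher, and among all tested genes 36.3% were lower and 35.0% higher. The members' median log2 fold change was -0.40, beside -0.03 for all tested genes. Macrophage and leukocyte markers moved with this comparison, 10 of 11 tested being lower in GS, and their part in the members' change was not tested.

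Among the transcription factors, Stat2, a signal transducer of the type I interferon complex, stood at 109, 111 and 103 CPM in the RCF libraries and at 51.2, 46.6 and 50.4 CPM in the GS libraries. The groups did not overlap, and Stat2 was 2.18-fold lower in GS (log2 -1.12 ± 0.0541 SE, adjusted p = 1.2e-17, edgeR quasi-likelihood test). Irf1, a factor that interferon gamma induces, fell from 32.9 ± 1.69 to 21.6 ± 2.1 CPM (1.53-fold lower). Irf7, which amplifies type I interferon, fell from 37.9 ± 1.72 to 28.7 ± 0.969 CPM (1.32-fold lower). Irf9, the DNA-binding part of the interferon complex, had means of 34.9 ± 2.19 and 32.0 ± 2.23 CPM and was not called.

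Of the RNA sensors, Ifih1 (MDA5) and Ddx58 (RIG-I), which detect viral RNA in the cytosol, were 1.63-fold and 1.49-fold lower in GS. Dhx58 (LGP2), which modulates both, had means of 7.47 ± 1.06 CPM in the parental cells and 7.41 ± 0.441 CPM in GS and was not called.

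Mx1 and Mx2, dynamin-like GTPases that trap viral components, had the largest fold decreases of the 19 members called lower in GS. Mx1 stood at 19.2, 17.7 and 18.3 CPM in the RCF libraries and at 2.34, 3.01 and 2.96 CPM in the GS libraries. The groups lay far apart, and Mx1 was 6.66-fold lower (log2 -2.73 ± 0.206 SE, adjusted p = 6.65e-13). Mx2 was 2.56-fold lower, at 12.4, 12.7 and 10.7 CPM against 30.4, 33.3 and 28.3 CPM in RCF, with no overlap.

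Some effectors went the opposite way. Oasl, an oligoadenylate synthetase-like protein, stood at 5.57, 3.49 and 5.49 CPM in RCF and at 11.7, 10.5 and 9.01 CPM in GS. All GS libraries were above all RCF libraries, and Oasl was 2.14-fold higher in GS (log2 1.10 ± 0.173 SE, adjusted p = 1.79e-06). Bst2 (tetherin), which holds budding viruses at the cell surface, rose from 7.08 ± 0.695 to 12.2 ± 1.6 CPM. Isg15, a ubiquitin-like modifier, was 1.25-fold higher in GS, and this call was lost when libraries were scaled by their totals (log2 0.22) or when RCF replicate 1 or 3 or GS replicate 1 or 3 was left out (log2 0.25 to 0.33). Gbp2, a guanylate-binding protein of the interferon gamma response, was 1.15-fold lower, and that call was lost without GS replicate 2 (log2 -0.14).

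Of 7 tested antigen processing rows, 2 were lower in GS (28.6%, beside 36.3% of all tested genes) and 5 were not called. B2m fell from 1169 ± 9.98 to 606 ± 19.1 CPM, and Psmb9, an immunoproteasome subunit, from 16.1 ± 1.67 to 7.84 ± 1.08 CPM. Tap1, which carries peptides into the endoplasmic reticulum, had means of 56.3 ± 1.43 and 56.6 ± 5.9 CPM.

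The comparison of GS_diff1 with GS asks what differed in the cardiomyocyte medium. Of 35 tested rows, 31 were lower in GS_diff1 and 2 higher, where 32.3% of all tested genes were lower and 32.0% higher. At least 2-fold lower were 15 rows, against 9.79% of all tested genes. The median log2 fold change was -0.84, beside 0.0 for all tested genes. Cell cycle genes moved the other way: all 14 read were higher, with sums of 617 to 631 CPM in GS and 1888 to 1920 CPM in GS_diff1. Of 7 tested cardiomyocyte markers 6 were higher (summed levels of 18.6 to 24.1 CPM in GS and 107 to 116 in GS_diff1). Mybpc3 made up most of both sums, with means of 16.1 ± 3.22 CPM in GS and 95.6 ± 3.11 in GS_diff1. Of the rest, Tnnt2 had the highest GS_diff1 mean, at 7.67 CPM, against 1.96 CPM in GS and 15.1 CPM in RCF. Of 5 tested endothelial markers 4 were higher. Cdh5, Emcn, Kdr and Esam did not pass the filter, with means of 0, 0, 0.0866 and 0.183 CPM in GS_diff1. Of 12 fibroblast markers 9 were lower and 2 higher. The relation of these marker lists to the members' change was not tested.

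All 12 tested antiviral effector rows were lower in GS_diff1, 10 of them at least 2-fold. Rsad2 (viperin), an enzyme that makes a chain-terminating nucleotide, stood at 13.3, 13.1 and 15.8 CPM in GS and at 0.19, 1.31 and 0.754 CPM in GS_diff1. Its GS_diff1 counts were 4, 26 and 13, so the 18.7-fold fall (log2 -4.22 ± 0.392 SE, adjusted p = 2.4e-06) rests on few reads. Ifit3, a protein of the complex that binds viral RNA, stood at 11.3, 11.5 and 13.3 CPM in GS and at 1.47, 2.77 and 0.811 CPM in GS_diff1, a 7.03-fold fall. For both genes the 3 GS_diff1 libraries were below those of every other group.

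Ifitm3 stood at 167, 162 and 167 CPM in GS and at 30.2, 31.5 and 31.2 CPM in GS_diff1. With no overlap, it fell 5.34-fold (log2 -2.42 ± 0.0418 SE, adjusted p = 1.38e-28). Oasl fell 4.4-fold, from 10.4 ± 1.32 to 2.35 ± 0.351 CPM. Bst2 fell 3.12-fold, and Rtp4, a chaperone that interferon induces, 3.33-fold. Oas1a, which makes the oligoadenylates that activate RNase L, fell from 2.95 ± 0.921 to 1.03 ± 0.181 CPM. Eif2ak2 (PKR), a kinase that halts translation on viral RNA, fell least among the effectors, by 1.18-fold from 49.1 ± 1.37 to 41.7 ± 1.73 CPM.

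The 4 transcription factors were all called lower, by unequal amounts. Irf7 stood at 29.8, 27.9 and 28.3 CPM in GS and at 6.52, 11.2 and 10.1 CPM in GS_diff1, 3.1-fold lower (log2 -1.63 ± 0.126 SE, adjusted p = 9.48e-10). Irf7 overlaps the gene Phrf1 by 65 bases on the other strand, and without knowing the use of strand, reads of that stretch cannot be assigned. Irf9 fell 1.57-fold and Stat2 1.22-fold. Irf1 was 1.18-fold lower with libraries that overlapped, and its call was lost with library totals as scaling, with the libraries of both groups alone, and without GS replicate 1, GS replicate 3 or GS_diff1 replicate 1 (log2 -0.25 to -0.12).

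Of the modifier, ubiquitin and ADP-ribosyl enzymes, 5 were lower and 1 higher. Usp18, the protease that removes Isg15 and blocks the type I receptor, stood at 7.62, 6.13 and 6.25 CPM in GS and at 2.0, 1.92 and 1.22 CPM in GS_diff1, 3.87-fold lower. Isg15 itself fell 1.79-fold. Parp9 and Dtx3l, an ADP-ribosyltransferase and a ubiquitin ligase that act as partners, fell 1.82-fold and 1.46-fold. Trim25, a ubiquitin ligase that activates RIG-I, was the exception, with 83.3 ± 8.8 CPM in GS and 95.8 ± 0.994 CPM in GS_diff1, 1.15-fold higher (log2 0.20 ± 0.0556 SE, adjusted p = 0.00228). The other member called higher was Ifi35, an interferon-induced protein, with 12.4 ± 2.01 and 16.9 ± 0.978 CPM.

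Antigen processing genes were lower in 6 of 7 rows. B2m stood at 622, 584 and 611 CPM in GS and at 201, 201 and 198 CPM in GS_diff1, 3.03-fold lower (log2 -1.60 ± 0.0285 SE, adjusted p = 2.93e-28). Tap1 fell 1.47-fold, and Nlrc5 fell from 1.51 ± 0.136 to 0.356 ± 0.335 CPM. Psmb9 had means of 7.84 ± 1.08 and 7.87 ± 2.12 CPM and was not called. The call for Psmb8, another immunoproteasome subunit, was lost without any 1 of the 3 GS libraries or GS_diff1 replicate 2 or 3 (log2 -0.82 to -0.51), and also with library totals, with limma-voom and without the filter. That for the Tap2 row beside it was lost without GS replicate 1 or 3 or GS_diff1 replicate 1 or 3 (log2 -0.59 to -0.48), and also with library totals and with limma-voom (log2 -0.59 to -0.55).

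Among members with an ISRE match in the promoter window, 17 were tested and 17 were lower in GS_diff1, with log2 fold changes from -4.22 to -0.23, where 32.3% of all tested genes were lower. Of 9 tested members with a window but no match, 6 were lower and 2 higher, from -2.14 to 0.44. In GS_diff2 against GS_diff1, which shares those libraries, 17 of 17 with a match and 7 of 9 without were higher, beside 32.1% of all tested genes. The counts lay otherwise in comparisons without GS_diff1. In GS against RCF, 10 of 17 with a match (median log2 -0.40) and 6 of 9 without (median log2 -0.66) were lower, beside 36.3% of all tested genes. In GS_diff2 against GS, 7 of 17 with a match and 6 of 9 without were higher, beside 33.3%. Differences between these counts were not tested.

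By the labels, GS_diff2 differed from GS_diff1 by the added EGM2 solution, an endothelial growth medium, while culture times are not given. Sall4 and Gata4 were also lower in GS_diff2, with means of 69.6 against 225 CPM and 285 against 495 CPM. Their part in the members' change was not tested. Of 35 rows, 31 were higher in GS_diff2 and 3 lower, beside 32.1% higher and 31.5% lower among all tested genes. At least 2-fold higher were 19 rows, against 10.7% of all tested genes, and the median log2 fold change was 1.09, beside 0.0. This comparison and the one before share the GS_diff1 libraries, so their directions are not independent. Cell cycle gene sums were 2069 to 2096 CPM in GS_diff2, with 7 of 14 genes higher and 3 lower than in GS_diff1. Of 7 tested cardiomyocyte markers 2 were higher and 4 lower, and of 5 endothelial markers 1 was higher and 2 lower. Of 12 fibroblast markers 5 were higher and 6 lower. The relation of these marker lists to the members was not tested.

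**Figure D2:**
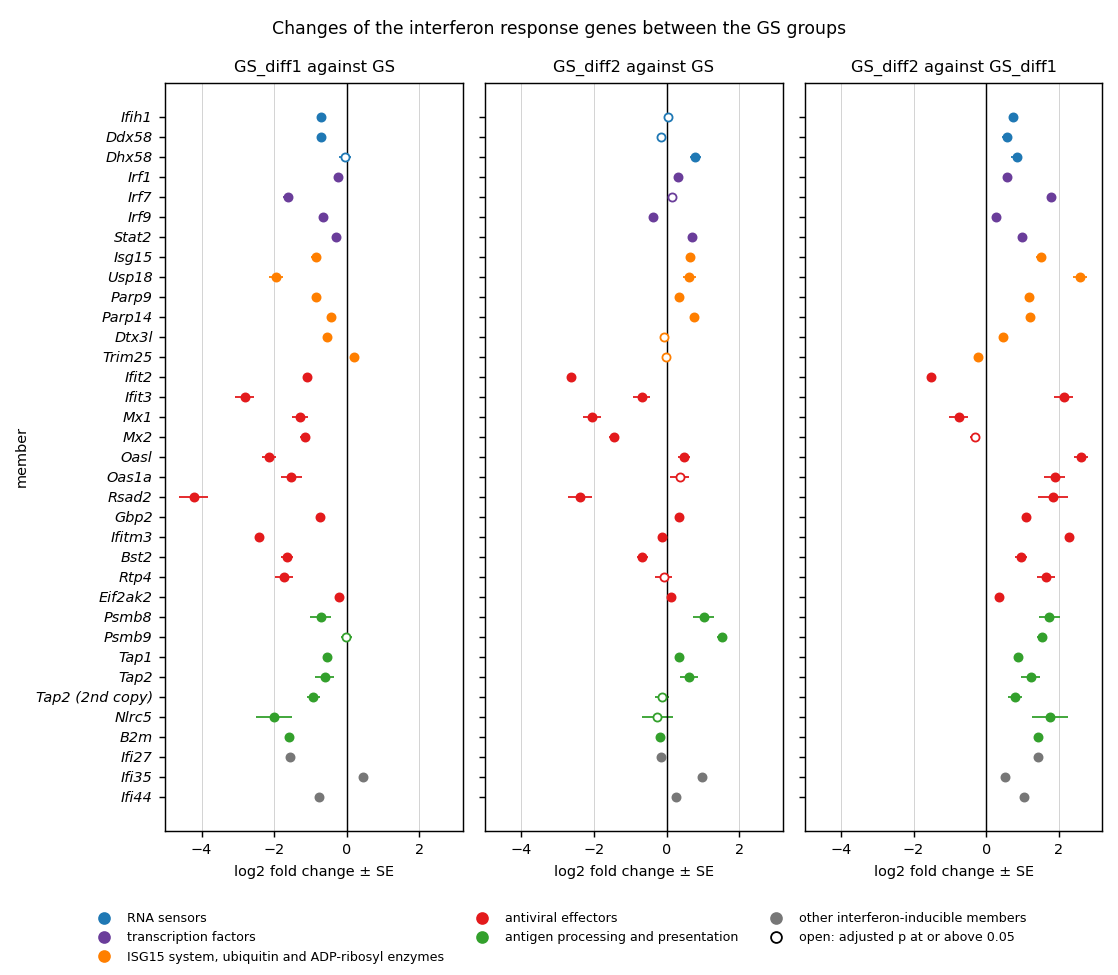
Log2 fold change with its standard error (x axis) of each tested member row (y axis) in 3 comparisons among the GS groups, coloured by role; filled points have an adjusted p below 0.05. Most points lie left of 0 in GS_diff1 against GS and right of 0 in GS_diff2 against GS_diff1, where Ifit2, Mx1 and Trim25 are lower.

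Usp18 and Oasl had the largest rises among the members. Usp18 stood at 8.4, 12.2 and 10.3 CPM in the GS_diff2 libraries, 5.97-fold above GS_diff1 (log2 2.58 ± 0.203 SE, adjusted p = 2.35e-12). Oasl stood at 14.6, 15.4 and 13.4 CPM, 6.11-fold above GS_diff1 (log2 2.61 ± 0.185 SE, adjusted p = 2e-13). For both genes each GS_diff2 library was above every GS_diff1 library. Ifitm3 rose 4.9-fold, Ifit3 4.37-fold, Oas1a 3.72-fold and Irf7 3.45-fold.

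All 7 antigen processing rows were higher in GS_diff2 than in GS_diff1. Psmb9 stood at 6.23, 7.11 and 10.3 CPM in GS_diff1 and at 22.7, 23.7 and 21.6 CPM in GS_diff2. The groups did not overlap, and Psmb9 was 2.9-fold higher (log2 1.53 ± 0.143 SE, adjusted p = 3.64e-10). Psmb8 rose 3.34-fold, B2m 2.69-fold and Tap1 1.84-fold. Stat2 rose 1.97-fold and Isg15 2.82-fold, and the RNA sensors Ifih1, Ddx58 and Dhx58 rose 1.68-fold, 1.48-fold and 1.79-fold.

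Ifit2, a partner of Ifit3 in antiviral defence, went down instead. It stood at 98.8, 99.1 and 95.1 CPM in the parental libraries and 70.9, 67.6 and 71.8 in those of GS. It stood at 32.9, 32.4 and 32.6 CPM in GS_diff1 libraries and 11.4, 11.7 and 11.0 in GS_diff2 libraries. The 4 groups did not overlap and descended in that order. Ifit2 was 2.87-fold lower in GS_diff2 than in GS_diff1 (log2 -1.52 ± 0.0646 SE, adjusted p = 8.32e-19), while Ifit3 was 4.37-fold higher.

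Mx1 was also lower, at 1.05, 1.01 and 1.33 CPM in GS_diff1 and 0.415, 0.964 and 0.574 CPM in GS_diff2. These levels stand for few counts, 22, 20 and 23 and 8, 22 and 11. This call (log2 -0.76) was lost with limma-voom, with the libraries of both groups alone, and without GS_diff1 replicate 3 or GS_diff2 replicate 1 or 3 (log2 -0.67 to -0.52). Mx2 had means of 5.35 ± 0.0644 and 4.36 ± 0.636 CPM and was not called, though it passed without GS_diff2 replicate 1 (log2 -0.40). Trim25 was 1.17-fold lower in GS_diff2.

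Compared with GS directly, GS_diff2 had 16 member rows higher and 10 lower of 35. Among all tested genes 33.3% were higher and 33.7% lower, and the members' median log2 fold change was 0.13, beside 0.0. Of 7 antigen processing rows 4 were higher and 1 lower, of 6 modifier, ubiquitin and ADP-ribosyl enzymes 4 were higher and 0 lower, and of 12 effector rows 3 were higher and 7 lower. Differences between these roles were not tested. In the same comparison all 14 cell cycle genes were higher, and of 12 fibroblast markers 8 were lower and 2 higher. Mean Sall4 was 69.6 CPM after the medium change against 246 CPM before it, and mean Gata4 285 against 595 CPM. The part of these markers and of both factors in the members' change was not tested.

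Psmb9 was 2.88-fold higher in GS_diff2 than in GS (log2 1.53 ± 0.144 SE, adjusted p = 3.88e-10), and Psmb8 2.02-fold. Dhx58 rose from 7.41 ± 0.441 to 12.8 ± 0.558 CPM. Parp14, an ADP-ribosyltransferase of the interferon response, was 1.7-fold and Stat2 1.61-fold higher. Isg15 stood at 14.1, 11.9 and 12.7 CPM in GS and at 22.6, 21.2 and 17.3 CPM in GS_diff2, 1.58-fold higher (log2 0.66 ± 0.133 SE, adjusted p = 7.01e-05).

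At least 2-fold lower than in GS were 4 rows, against 10.2% of all tested genes. They were the effectors Ifit2 (6.15-fold), Rsad2 (5.2-fold), Mx1 (4.14-fold) and Mx2 (2.74-fold). Rsad2 stood at 3.06, 1.97 and 3.08 CPM in GS_diff2, below every GS library and above every GS_diff1 library. B2m was 1.13-fold lower, with a mean of 537 ± 6.6 CPM. Ifitm3 and Ifi27 were 1.09-fold and 1.1-fold lower, calls that were lost when libraries were scaled by their totals (log2 -0.04 and -0.05).

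**Figure D3:**
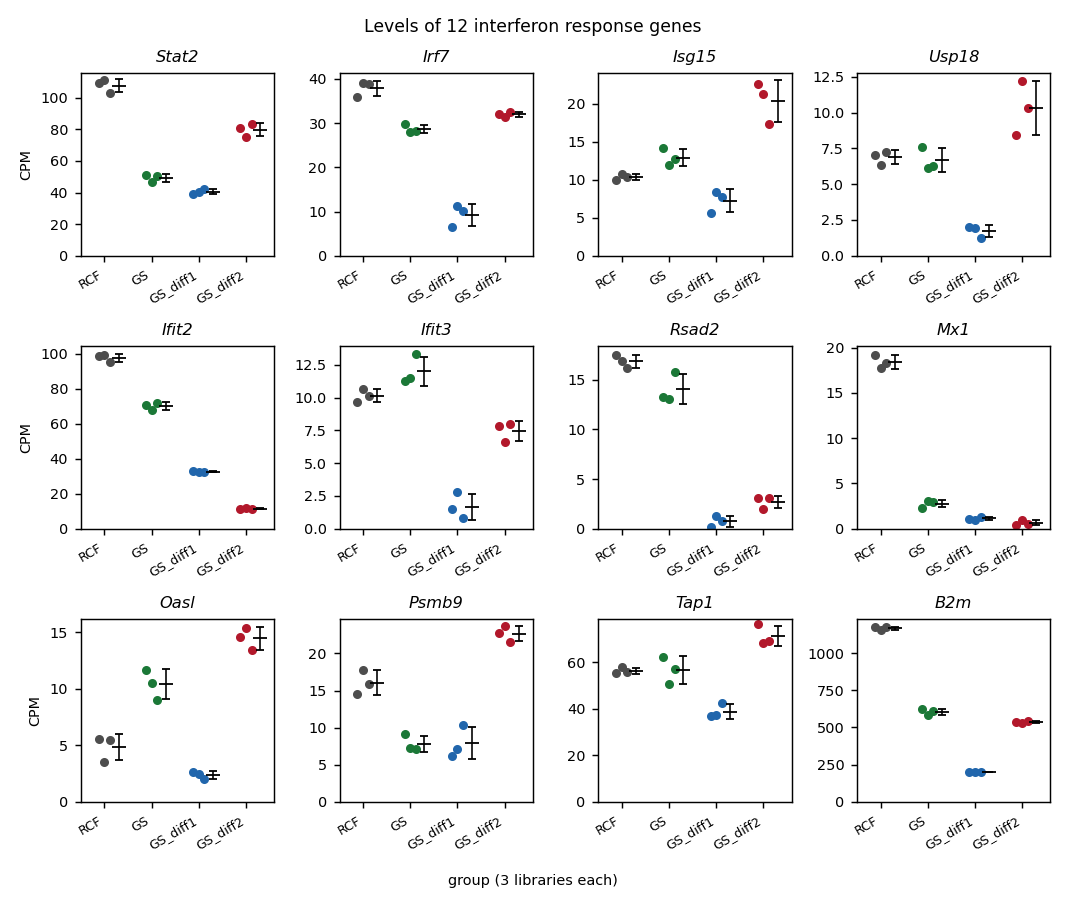
CPM (y axis, from 0) of 12 members in each library of the 4 groups (x axis); coloured points are libraries and the black mark beside them is the mean ± SD of 3. Ifit2 descends from RCF to GS_diff2, Rsad2 and Mx1 are low in both media groups, and Usp18, Oasl, Psmb9 and Tap1 have their highest mean in GS_diff2.

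Further calls of GS_diff2 against GS changed when single libraries were left out. Those of Ifit3 (1.61-fold lower) and Oasl (1.39-fold higher) were lost without GS replicate 3 or GS_diff2 replicate 2 (log2 -0.61 to -0.60 and log2 0.38 to 0.43). Eif2ak2 lost its call without GS replicate 1 or 3 or GS_diff2 replicate 2 (log2 0.10 to 0.13), and also with DESeq2, without the filter, with the replicate block and with the libraries of both groups alone (log2 0.13). Ifi44, another interferon-induced gene, lost its call without GS replicate 2 or 3 or GS_diff2 replicate 2 (log2 0.19 to 0.23). The Tap2 row beside Psmb8 stood at 12.1, 5.91 and 5.85 CPM in GS_diff2, and its log2 difference of 0.61 was no longer called without GS replicate 1 or 2 or without the high GS_diff2 replicate 1 (log2 0.18 to 0.63), nor with limma-voom or the libraries of both groups alone (log2 0.52 to 0.61).

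Against the parental fibroblasts, GS_diff1 had 33 of 35 rows lower and 1 higher, beside 37.4% lower and 38.0% higher among all tested genes. At least 2-fold lower were 22 rows, against 15.9% of all tested genes, and the median log2 fold change was -1.30, beside 0.01 for all tested genes. Rsad2 was 22.5-fold, Mx1 16.3-fold, Ifitm3 7.04-fold, Ifit3 5.94-fold, B2m 5.85-fold and Irf7 4.09-fold lower than in RCF. Trim25 was 1.13-fold higher and Dhx58 was not called. Leukocyte markers were lower in 11 of 11 tested in this comparison, and their part was not tested.

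In GS_diff2 against RCF, 18 rows were lower and 10 higher, beside 35.4% lower and 37.1% higher among all tested genes, and the median log2 fold change was -0.29, beside 0.01. Without RCF replicate 2 the count of higher rows fell to 6. Mx1 was 27.5-fold, Ifit2 8.58-fold, Mx2 7.02-fold and Rsad2 6.25-fold lower than in RCF. Oasl was 2.97-fold, Isg15 1.97-fold and Dhx58 1.71-fold higher. Leukocyte markers were 10 lower and 1 higher of 11 tested, and their part was not tested.

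Several members are neighbours on the chromosome (coordinates as deposited, Rnor_6.0 being the rat build in the submitters' processing notes). Ifit2 (chromosome 1, 252894663 to 252900726) and Ifit3 (252906234 to 252911373) lie on the same strand 5507 bases apart with 0 other genes of the table between them. They were called in opposite directions in GS_diff2 against GS_diff1. Parp9 and Dtx3l (chromosome 11) are transcribed away from each other with 1128 bases between them. Both were lower in GS_diff1 than in GS and higher in GS_diff2 than in GS_diff1, Parp9 by 2.29-fold and Dtx3l by 1.39-fold in the latter.

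On chromosome 20, Psmb9 (3973420 to 3978845), Tap1 (3979035 to 3989669), Psmb8 (3990613 to 3993769) and Tap2 (3995544 to 4009587) stand in a row in the MHC region. Psmb9 and Tap1 are on opposite strands, 189 bases apart. In GS, Psmb9 was 2.04-fold below the parental level (adjusted p = 4.57e-07), while Tap1 differed by log2 0.01 (adjusted p = 0.892, edgeR). The other Tap2 row (5198258 to 5212624) carries the same name, and how reads were divided between both rows is unknown, so the level of each is uncertain. The same holds for members with near-identical relatives, such as Oas1a, Ifitm3 and the Ifit genes.

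Upstream of the members, transcripts of the interferons were close to absent. Of 9 ligand genes in the table, 8, among them Ifnb1, Ifng and 4 alpha interferon genes, had 0 counts in all 12 libraries, which allows a level of up to 0.127 to 0.193 CPM by the limit of 3 counts. The other was Ifne, an epithelial type I interferon, with 4 to 14 counts per group. The limit covers counting error only.

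Of 9 tested receptor and kinase genes, 8 were lower and 1 higher in GS_diff1 than in GS, and 8 were higher and 0 lower in GS_diff2 than in GS_diff1, where the shares of all tested genes were 32.3% lower and 32.1% higher. Ifnar1, a chain of the type I receptor, stood at 113, 110.0 and 106 CPM in the GS libraries, 64.4, 64.1 and 70.0 in those of GS_diff1 and 108, 104 and 102 in those of GS_diff2. The GS_diff1 libraries were below the others, 1.66-fold under GS (log2 -0.73 ± 0.0444 SE, adjusted p = 5.32e-15), and Ifnar1 was 1.59-fold higher in GS_diff2 than in GS_diff1. Ifnar2, the other chain, fell 1.43-fold in GS_diff1 and was 1.45-fold higher in GS_diff2 than in GS_diff1.

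Jak2, the kinase of the interferon gamma receptor among others, was low in both media groups. It had means of 328 ± 2.9 CPM for GS, 92.2 ± 3.35 for GS_diff1 and 103 ± 4.49 for GS_diff2, 3.55-fold and 3.19-fold below GS. Tyk2, the kinase of the type I receptor, was 1.32-fold higher in GS_diff1 and 2.01-fold higher in GS_diff2 than in GS. Ifngr1, a chain of the interferon gamma receptor, fell 2.15-fold in GS_diff1 and 1.61-fold in GS_diff2.

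**Figure D4:**
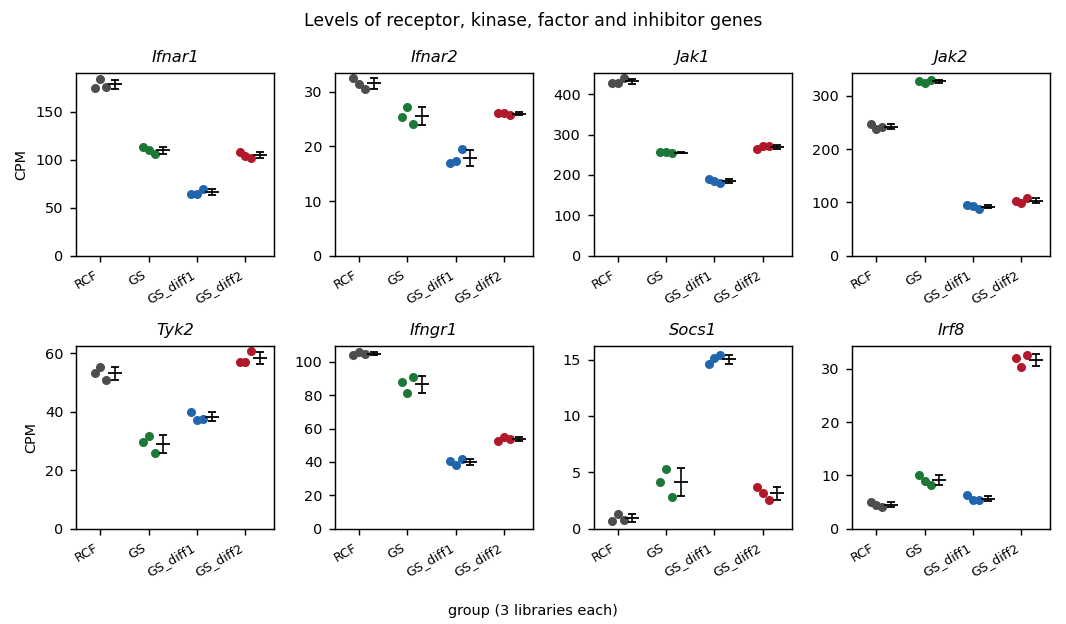
CPM (y axis, from 0) of 8 genes of the interferon pathway outside the member list in each library of the 4 groups (x axis); points are libraries, black marks the mean ± SD of 3. Ifnar1, Ifnar2, Ifngr1 and Jak1 are lowest in GS_diff1, Jak2 is low in both media groups, Socs1 is highest in GS_diff1 and Irf8 in GS_diff2.

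Socs1, a feedback inhibitor of Jak kinases, stood at 4.18, 5.32 and 2.83 CPM in the GS libraries, 14.6, 15.1 and 15.4 in those of GS_diff1 and 3.73, 3.15 and 2.56 in those of GS_diff2. The GS_diff1 libraries were above the others, 3.64-fold above GS (log2 1.86 ± 0.22 SE, adjusted p = 1.51e-08). Socs3, an inhibitor of the same family, had means of 67.0 ± 2.27 CPM in GS and 70.7 ± 5.06 in GS_diff1, which was not called, and was 2.33-fold higher in GS_diff2 than in GS_diff1. Of all 11 feedback inhibitor genes, 3 were higher and 2 lower in GS_diff1 against GS, beside 32.0% and 32.3% of all tested genes. The relation of these inhibitors to the members was not tested.

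Irf3, a factor activated downstream of the sensors, was 1.53-fold lower in GS than in the parental cells and 1.47-fold higher in GS_diff1 than in GS. Irf8, a factor of immune cells, was 3.47-fold higher in GS_diff2 than in GS, with 31.7 ± 1.11 against 9.09 ± 0.988 CPM. The RNA sensor Tlr3 was 1.73-fold lower in GS than in the parental cells and 1.48-fold higher in GS_diff2 than in GS. Ikbke, a kinase that activates Irf3 and Irf7, was 5.36-fold lower in GS than in the parental cells and 2.88-fold higher in GS_diff2 than in GS. Of 14 tested genes of nucleic acid sensing, 11 were lower and 1 higher in GS than in RCF (36.3% and 35.0% of all tested genes), and 9 were higher and 1 lower in GS_diff2 than in GS (33.3% and 33.7%).

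Interferon-inducible genes outside the member list were counted for comparison. Of 53 tested, 27 were lower and 16 higher in GS than in RCF, where 36.3% of all tested genes were lower and 35.0% higher. In GS_diff1 against GS, 35 were lower and 5 higher, beside 32.3% and 32.0% of all tested genes. In GS_diff2 against GS_diff1, 43 were higher and 5 lower, beside 32.1% and 31.5%, and in GS_diff2 against GS, 25 were higher and 13 lower, beside 33.3% and 33.7%. Median log2 fold changes were -0.29, -0.58, 0.93 and 0.28 in that order, beside -0.03, 0.0, 0.0 and 0.0 for all tested genes.

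Among them, the chemokine gene Cxcl10 stood at 52.7, 52.8 and 47.5 CPM in the GS libraries, 21.2, 23.3 and 18.8 in those of GS_diff1 and 153, 148 and 157 in those of GS_diff2. These 3 groups did not overlap, and Cxcl10 was 7.19-fold higher in GS_diff2 than in GS_diff1 (log2 2.85 ± 0.0658 SE, adjusted p = 1.67e-25). Ccl5, another chemokine, fell 8.55-fold in GS_diff1 against GS and was 7.6-fold higher in GS_diff2 than in GS_diff1. The growth-regulating Schlafen genes Slfn3 and Slfn13 were 4.89-fold and 6.77-fold higher in GS_diff2 than in GS. Lgals9, a galectin, was 8.44-fold higher in GS_diff2 than in GS_diff1.

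Others were low in both media groups or moved apart from the rest. The adhesion genes Icam1 and Vcam1, which inflammatory signals also induce, were 6.69-fold and 4.92-fold lower in GS_diff1 than in GS, and 3.99-fold and 3.35-fold lower in GS_diff2. Casp4, an inflammatory caspase, fell from 58.8 ± 1.56 CPM in GS to 8.59 ± 1.05 CPM in GS_diff2. Ifitm1, a relative of Ifitm3, was 10.5-fold lower in GS than in the parental cells. Samhd1, which depletes nucleotides, and Mb21d1, the DNA sensor cGAS, were 3.43-fold and 2.76-fold higher in GS_diff1 than in GS, against the direction of most members.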

How the data were processed

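Libraries of 12 cultures were built from total RNA with NuGEN's Ovation kit, per the labels' protocols. The authors deposited raw counts per gene with gene lengths. The submitters' processing notes name Bowtie 0.12.2 and the builds mm8 and Rnor_6.0. Sources used here do not name the counting program, the annotation or the use of strand.

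After filterByExpr and TMM scaling, edgeR 4.0.16 (R 4.3.3) fitted 1 robust quasi-likelihood model to all 12 libraries, with two-sided contrasts, Benjamini-Hochberg adjustment over 14399 genes and a threshold of 0.05. Standard errors came from the F statistic. The fit was tested on simulated data. Alternatives were other scalings, filters and sample sets, DESeq2 1.42.0, limma-voom (limma 3.58.1), a replicate block and leaving out each library. The members, roles, lists and tests were chosen with earlier results of these data known. From the pathway lists, Ifnb1, Ifnar1, Ifnar2, Irf3 and Tlr3 were named, and per main comparison up to 3 called genes per direction with the largest fold, non-overlapping libraries and at least 5 CPM; some genes this rule selects are not reported here. Jak2, Tyk2, Ifngr1, Irf8, Socs3, Tcf21, Dcn, Pdgfra, Lum, Cd14 and Ifne were chosen after their values were seen.

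Libraries of a group differed by 4.44 to 7.57 times sampling noise (chi-square per degree of freedom), so none looked like a repeat.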

Additional observations from a re-analysis of the deposited data

How the results depend on the processing

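Over all alternatives, 2836 of 2940 member results kept both their direction and their side of the threshold, 85 lost a call, 19 gained one and 0 reversed. Counts of member rows called stayed within 1.5 times their main value with 1 exception: higher rows in GS_diff2 against RCF were 10 with all libraries, 6 without RCF replicate 2, and 6 to 8 when any 1 library of these groups was left out. Leaving out 1 library gave 18 to 19 lower rows in GS against RCF, 28 to 30 in GS_diff1 against GS, and 31 higher rows in GS_diff2 against GS_diff1 each time. Library totals as the only scaling moved the median of all genes in GS against RCF by -0.10 (log2). It gave 4383 higher and 6024 lower genes there in place of 5039 and 5223, and 5456 and 4156 in GS_diff2 against GS in place of 4797 and 4854. The replicate numbers of the titles did not pair the samples (correlations of same-numbered libraries from -0.0599 to 0.0916). With the replicate block, 206 of 210 member results kept their side of the threshold, 3 lost a call (Gbp2 in GS_diff2 and Ifi35 in GS_diff1 against RCF, and Eif2ak2 in GS_diff2 against GS) and 1 gained it (Mx2 in GS_diff2 against GS_diff1, log2 -0.30). Nlrc5 in GS against RCF (log2 -0.91) was not called but passed in 6 alternatives (log2 -1.01 to -0.88). Against RCF, calls of Tap2 and Ifi35 in GS_diff1 and of Usp18, Gbp2, Psmb8, Tap2, Nlrc5, Ifi35 and Ifi44 in GS_diff2 were lost when some single library was left out. The causes were not tested. Rows with few counts, such as Mx1, Rsad2 and Nlrc5 in the media groups, are limited by depth.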
